A study of Homo sapiens with 6 samples.

Results

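Expression of 5 genes that EWS-FLI1 is known to repress, TGFBR2, LOX, FOXO1, PHLDA1 and THBS1, was followed in 6 RNA-seq libraries of Ewing sarcoma cells treated with THZ1. The genes were taken by name, with earlier results of these data known, and each matched 1 row among the 27420 genes of the deposited table. Both lines used, A673 and SKNMC, are established human lines of Ewing sarcoma, a tumour driven by EWS-FLI1. THZ1 is a covalent inhibitor of CDK7, a kinase of the transcription machinery, and DMSO is its vehicle. Each line was exposed for 6 h to DMSO, to 50 nM THZ1 or to 200 nM THZ1, and each of these 6 conditions has 1 library. Within a line there are no replicates, so differences within a line are given without a test. A fit over both lines, with the line as a block, was tested and is given with the counts. Its error comes from the spread between the 2 lines, drawn towards the spread over all genes, and not from replicate cultures.

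EWS-FLI1 joins part of the RNA-binding protein EWS, encoded by EWSR1, to the DNA-binding domain of the ETS factor FLI1. The fusion protein activates some genes through repeats of the ETS core motif GGAA and represses others, directly or through corepressors and through repressors that it induces. TGFBR2 encodes a receptor of TGF-beta. LOX encodes lysyl oxidase, which crosslinks collagen and elastin. FOXO1 encodes a forkhead transcription factor restrained by insulin and AKT signalling. PHLDA1 encodes a protein with a pleckstrin homology-like domain, and THBS1 encodes thrombospondin 1, a secreted matrix protein that limits the growth of blood vessels. In knockdown experiments such genes are known to go up when the fusion is lost, so the question was whether they were higher where FLI1 was lower.

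Among the 5 genes, LOX in SKNMC was the one whose level was higher at each step of dose. FLI1 was lower at both doses in both lines, while 0 of the 5 genes reached a 2-fold increase in any of the 4 comparisons with DMSO. Increases of that size were rare among all genes above 1 FPKM with DMSO, at 0.343% and 0.126% in A673 and 0.471% and 0.462% in SKNMC (50 and 200 nM), so 0 of 5 is near the background. LOX in SKNMC at 200 nM passed 2-fold under 2 of 4 other scalings of the libraries, at 1.36 and 1.44 on the log2 scale. Of the 20 changes (5 genes, 2 lines and 2 doses), 16 were below 0 and 4 were above it. The 4 were LOX and FOXO1 in A673 at 50 nM and LOX in SKNMC at both doses. Most active genes, those above 1 FPKM with DMSO, were below 0 too. Those above 0 made up 29.9% and 29.6% in A673 and 27% and 19.2% in SKNMC (50 and 200 nM). Changes are log2((FPKM + 1) of THZ1 / (FPKM + 1) of DMSO), where FPKM is the number of fragments divided by transcript length and by how many fragments the library mapped. The added 1 makes changes of genes near or under 1 FPKM look smaller than the ratio of FPKM itself, and the number of reads behind a value is unknown. FPKM is a share of each library: the median change over genes above 1 FPKM with DMSO, called active genes here, was -0.27 (50 nM) and -0.40 (200 nM) for A673 and -0.32 and -0.55 for SKNMC. The share of summed FPKM held by 83 ribosomal protein genes went from 13.7% with DMSO to 17.7% with 200 nM for A673 and from 19.0% to 29.7% for SKNMC.

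FLI1, on chromosome 11, had A673 values of 31.5 FPKM (DMSO), 15.0 (50 nM) and 4.26 (200 nM). The SKNMC values were 27.3, 15.2 and 4.56 FPKM in the same order. The levels stepped down with dose to nearly the same values in both lines. On the log2 scale FLI1 changed by -1.03 and -2.63 (A673) and by -0.80 and -2.34 (SKNMC), so 3 of the 4 reached 2-fold. The change at 200 nM was lower than that of all but 0.894% of active genes in A673 and all but 1.44% in SKNMC. EWSR1, which supplies the promoter of the fusion, was at 134, 132 and 115 FPKM in A673 and at 161, 170 and 126 FPKM in SKNMC. Its changes lay between -0.35 and 0.08. A value per gene does not tell fusion transcripts from those of an intact FLI1 or EWSR1 allele, and the level of the EWS-FLI1 protein was not measured in these files.

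**Figure D1:**
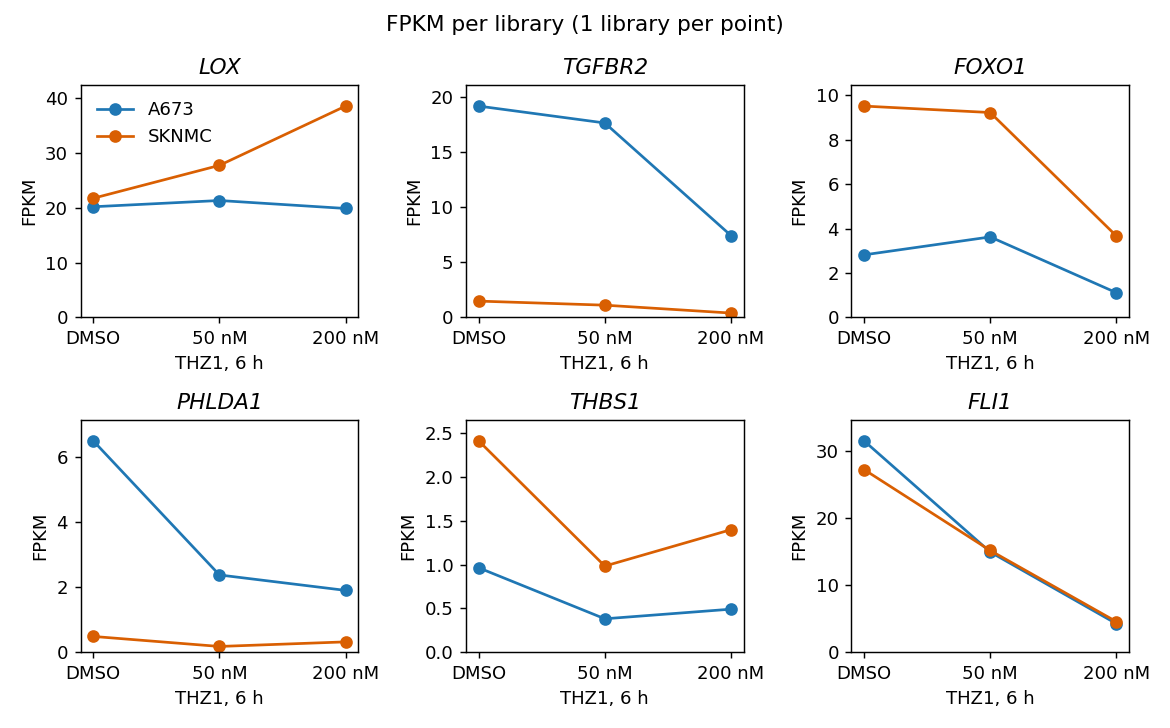
FPKM (y axis, linear, from 0) of the 5 genes and of FLI1 against the THZ1 dose (x axis) in A673 (blue) and SKNMC (orange), with 1 library per point. FLI1 steps down in both lines, LOX goes up in SKNMC to 38.5 FPKM, TGFBR2 and FOXO1 are lower at 200 than at 50 nM, and PHLDA1 and THBS1 are already low at 50 nM.

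The levels with DMSO were not uniformly low, and 4 of the 5 genes were above 1 FPKM in each line. LOX was at a similar level in A673 and SKNMC, 20.2 and 21.7 FPKM, above 60.5% and 65.5% of the active genes of the line. TGFBR2 was at 19.2 FPKM in A673 against 1.49 FPKM in SKNMC, 12.9 times as high, and PHLDA1 at 6.49 against 0.485 FPKM, 13.4 times as high. FOXO1 and THBS1 had the opposite order. FOXO1 was 3.38 times as high in SKNMC (9.52 against 2.82 FPKM) and THBS1 2.50 times (2.41 against 0.964 FPKM). With 1 added, TGFBR2, PHLDA1 and FOXO1 differed at least 2-fold between the untreated lines, and 22.6% of the 11855 genes whose mean over the 2 DMSO libraries was above 1 FPKM did so. LOX, at -0.10 on this scale (A673 minus SKNMC), was at 0.34 after division by ribosomal protein genes, so its order between the lines depends on the scaling. FLI1 itself was at 31.5 and 27.3 FPKM in these 2 libraries.

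The 5 genes had 3 shapes over the doses. LOX was flat or higher, TGFBR2 and FOXO1 were near DMSO at 50 nM and lower at 200 nM, and PHLDA1 and THBS1 were lower at 50 nM with little or no further loss. These shapes were described after the values were seen. The 250 bases before the annotated start of 1 gene of each kind are shown. ETS factors bind the core GGAA, and EWS-FLI1 activates some genes through repeats of it, of which 2 adjacent copies are the shortest. Sequences are from RefSeq on GRCh38.p14, read 5′ to 3′ on the strand of the gene, with GGAA and its reverse complement TTCC in capitals. LOX lies on the minus strand (chr5:122078260-122078509), TGFBR2 on the plus strand (chr3:30606106-30606355) and PHLDA1 on the minus strand (chr12:76031777-76032026).
LOX: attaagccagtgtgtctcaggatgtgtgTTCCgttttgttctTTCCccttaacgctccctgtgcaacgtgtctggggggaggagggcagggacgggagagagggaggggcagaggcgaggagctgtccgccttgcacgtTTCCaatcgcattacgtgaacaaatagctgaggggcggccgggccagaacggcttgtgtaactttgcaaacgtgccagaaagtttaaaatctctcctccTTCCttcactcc
TGFBR2: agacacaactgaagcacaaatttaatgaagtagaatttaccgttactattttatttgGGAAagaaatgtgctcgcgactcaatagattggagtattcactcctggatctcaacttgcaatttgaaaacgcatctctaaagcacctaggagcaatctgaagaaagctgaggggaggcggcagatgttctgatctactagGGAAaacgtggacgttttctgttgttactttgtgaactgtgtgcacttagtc
PHLDA1: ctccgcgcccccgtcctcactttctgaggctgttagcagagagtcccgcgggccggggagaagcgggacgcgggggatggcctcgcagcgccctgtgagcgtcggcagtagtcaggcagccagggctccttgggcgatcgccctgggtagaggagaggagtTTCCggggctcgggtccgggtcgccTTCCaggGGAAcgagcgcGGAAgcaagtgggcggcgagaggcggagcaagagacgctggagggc

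On both strands together, GGAA occurred 4 times in these windows of LOX, PHLDA1 and THBS1, 2 times in that of TGFBR2 and 1 time in that of FOXO1. The median over 35116 promoters was 3, and 92.7% held at least 1. The adjacent pair GGAAGGAA (or TTCCTTCC), held by 3.06% of all promoters, was in none of the 5 windows. The same was true of TGACTCA, the AP-1 motif (or TGAGTCA), held by 4.20%, and of the TATA-type motif TATAAA (or TTTATA), held by 10.7%. The GC box core GGGCGG (or CCGCCC), held by 42.6%, occurred 4 times in the windows of FOXO1 and THBS1, 1 time in those of LOX and PHLDA1 and not in that of TGFBR2. The GC content was 40.8% for TGFBR2, 55.2% for LOX, 67.2% for FOXO1, 69.6% for THBS1 and 70.4% for PHLDA1, with a median of 58.0% over all promoters. These are matches of letters in short windows and say nothing about binding.

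LOX was the gene of the 5 with the highest change in SKNMC. There its values were 21.7 FPKM (DMSO), 27.7 (50 nM) and 38.5 (200 nM), which is 1.77 times the DMSO level at the higher dose. The changes of 0.34 and 0.80 were higher than those of 92.2% and 98.9% of active genes. Increases of any size were seen for 27% of active genes at 50 nM and 19.2% at 200 nM, and increases of at least 2-fold for 0.471% and 0.462%. In A673, LOX was at 20.2, 21.3 and 19.9 FPKM, and its changes of 0.08 and -0.02 were close to no change, while the FLI1 level was lower by similar amounts in both lines. The scaling of the libraries matters here: over 4 other scalings the change in SKNMC at 200 nM ranged from 0.21 to 1.44, and that at 50 nM from -0.06 to 0.70.

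Of the other lysyl oxidases, LOXL1 and LOXL2 were above 1 FPKM with DMSO. LOXL1 was at 80.7, 89.4 and 94.5 FPKM in A673 and at 11.9, 10.5 and 9.34 FPKM in SKNMC, so in SKNMC its order with dose was opposite to that of LOX. LOXL3 and LOXL4 were under 1 FPKM in all 6 libraries. Genes of fibrillar collagens and other matrix proteins, on some of which LOX acts, included none past 2-fold in either direction. Their changes were above 0 for 10 of 10 in A673 at 50 nM, 8 of 10 at 200 nM, 8 of 9 in SKNMC at 50 nM and 9 of 9 at 200 nM. Of all active genes, 29.9%, 29.6%, 27% and 19.2% were above 0 in the same comparisons. The medians of the matrix genes were 0.16, 0.24, 0.11 and 0.44. After division by the median of ribosomal protein genes these medians turned to -0.04, -0.10, -0.26 and -0.15, and after division by the median ratio of active genes they were 0.45, 0.69, 0.48 and 1.08. FN1 (fibronectin) was at 550, 732 and 736 FPKM in A673 and 91.4, 94.5 and 124 FPKM in SKNMC, and COL1A2 (a chain of type I collagen) at 62.6, 72.9 and 93.8 FPKM in SKNMC.

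Markers of fibroblasts moved with LOX in SKNMC in part. DCN (decorin) was at 30.9, 37.1 and 54.5 FPKM in SKNMC and LUM (lumican) at 23.5, 33.3 and 48.9 FPKM, while both were under 1 FPKM in every A673 library. LUM rose by 1.02 on the log2 scale at 200 nM. PDGFRB, the third of the 3 fibroblast markers, was at 27.4, 14.2 and 15.8 FPKM. The sum of the 3 was 81.8, 84.6 and 119 FPKM in SKNMC and between 16.9 and 22.0 FPKM in A673. Their part in the LOX values was not tested. PTPRC, a marker of blood cells, was at 10.2, 7.90 and 13.1 FPKM in SKNMC, and under 1 FPKM in A673. CD3E was listed at 0, and DES, MYOD1 and EPCAM were under 1 FPKM in all 6 libraries, while KRT8, an epithelial keratin, was at 11.8 FPKM in A673 and 11.9 FPKM in SKNMC with DMSO. All 6 markers of Ewing sarcoma used here (CD99, NKX2-2, STEAP1, NR0B1, PRKCB and LIPI) were present with DMSO, the lowest at 14.8 FPKM in A673 and 25.2 FPKM in SKNMC.

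TGFBR2 fell in A673 at 200 nM. Its A673 values were 19.2 FPKM (DMSO), 17.6 (50 nM) and 7.44 (200 nM), with changes of -0.11 and -1.26. In SKNMC, where it started near the limit of 1 FPKM, it was at 1.49, 1.12 and 0.402 FPKM, with changes of -0.23 and -0.83. The higher dose thus left 38.8% of the DMSO level in A673 and 27.1% in SKNMC. FOXO1 was likewise lower at 200 nM than at 50 nM. It was at 2.82, 3.63 and 1.12 FPKM in A673, with changes of 0.28 and -0.85, and at 9.52, 9.23 and 3.67 FPKM in SKNMC, with changes of -0.04 and -1.17. At 200 nM its level was 39.6% of DMSO in A673 and 38.6% in SKNMC. Between the doses FOXO1 was lower at 200 nM by at least 2-fold in both lines and TGFBR2 in A673, a step that 7.44% of active genes made in A673 and 8.39% in SKNMC. Among active genes spanning over 50 kb this was 9.42% and 9.52%, and among shorter ones 6.32% and 7.75%.

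TGFBR2 and FOXO1 are longer genes than the other 3. On hg19 TGFBR2 spans 87.6 kb (chr3:30647993-30735634) and FOXO1 111 kb (chr13:41129803-41240734), against 15.1 kb for LOX (chr5:121398889-121413980), 8.49 kb for PHLDA1 (chr12:76419226-76427712) and 18.4 kb for THBS1 (chr15:39873279-39891667). The median active gene spans 31.7 kb. In A673 at 50 nM, 8.12% of active genes over 50 kb were at least 2-fold lower against 20.3% of the shorter ones, and in SKNMC 8.45% against 19.9%. At 200 nM the shares were 20.6% against 27.9% in A673 and 21.4% against 30.6% in SKNMC. FLI1 spans 127 kb (chr11:128556429-128683162) and was lower already at 50 nM. The limit of 50 kb was chosen after the values were seen, and the part of gene length in these patterns was not tested.

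PHLDA1 and THBS1 were low already at 50 nM. PHLDA1 had A673 values of 6.49 FPKM (DMSO), 2.37 (50 nM) and 1.90 (200 nM), and it fell at both doses with changes of -1.15 and -1.37. In SKNMC it was at 0.485, 0.178 and 0.318 FPKM, all under 1 FPKM. The FPKM at 50 nM was 36.6% of DMSO in both lines. THBS1 was at 0.964, 0.382 and 0.491 FPKM in A673 and at 2.41, 0.983 and 1.40 FPKM in SKNMC. Its level at 50 nM was 39.6% of DMSO in A673 and 40.8% in SKNMC, and at 200 nM 51.0% and 58.0%. THBS1 in both lines and PHLDA1 in SKNMC were thus lowest at 50 nM, whereas FLI1 was lowest at 200 nM. From 50 to 200 nM, 48.3% of active genes in A673 and 37.9% in SKNMC were higher. At these low levels the changes of THBS1 with 1 added were between -0.78 and -0.40.

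Counted together, 1 of the 5 genes was at least 2-fold lower in A673 at 50 nM (PHLDA1), where 15.9% of active genes were. At 200 nM it was 2 of 5 (TGFBR2 and PHLDA1) in A673, against 25.3% of active genes. In SKNMC it was 0 of 5 at 50 nM, against 15.8%, and 1 of 5 (FOXO1) at 200 nM, against 27.3%. With 1 added, a gene under 1 FPKM with DMSO cannot be 2-fold lower. This held for THBS1 in A673 (0.964 FPKM) and PHLDA1 in SKNMC (0.485 FPKM). In each line 4 of the 5 genes could thus be called lower, and the shares are of active genes alone. In A673, at least 2-fold higher levels were found for 0.343% of active genes at 50 nM and 0.126% at 200 nM. Any increase was seen for 2 of 5 genes in A673 at 50 nM against 29.9% of active genes, and for 0 of 5 at 200 nM against 29.6%. In SKNMC it was seen for 1 of 5 at each dose, against 27% and 19.2%. The median change of the 5 genes was -0.11 and -0.85 in A673 and -0.23 and -0.51 in SKNMC. The medians of active genes were -0.27 and -0.40 in A673 and -0.32 and -0.55 in SKNMC. Without the added 1, 9 of the 20 values in place of 4 were at least 2-fold lower, the additional ones being TGFBR2 in SKNMC and FOXO1 in A673 at 200 nM, PHLDA1 in SKNMC at 50 nM, and THBS1 in both lines at 50 nM. The shares of active genes above are all with 1 added, so they are not a background for this count.

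Over both lines, log2(FPKM + 1) was fitted with limma on line and dose for 11503 genes with a mean above 1 FPKM, which leaves 2 residual degrees of freedom among the 6 libraries. This fit was chosen after the values were seen. The variance of each gene was drawn towards the trend over all genes, so an SE is not the gene's own spread between the lines alone. FLI1 changed by -0.92 at 50 nM (SE 0.16, adjusted p = 0.00123) and by -2.49 at 200 nM (SE 0.16, adjusted p = 4e-06). At 50 nM 1 of the 5 genes passed an adjusted p of 0.05, THBS1 at -0.65 (SE 0.20, adjusted p = 0.029), where 38.3% of all genes passed. At 200 nM 3 of 5 passed, where 53.5% of all genes did. These were TGFBR2 at -1.04 (SE 0.19, adjusted p = 0.000996), FOXO1 at -1.01 (SE 0.18, adjusted p = 0.000803) and PHLDA1 at -0.77 (SE 0.27, adjusted p = 0.0333). LOX was at 0.39 at 200 nM (SE 0.19, adjusted p = 0.113) and did not pass. With the libraries divided by the median ratio of active genes, LOX passed as higher at 200 nM (0.93, adjusted p = 0.00665), PHLDA1 did not (adjusted p = 0.132), and 0 of 5 passed at 50 nM. Both genes depended on which line lost a library. Without the A673 DMSO library or the A673 library at 200 nM, LOX at 200 nM was at 0.66 and 0.73, and PHLDA1 at -0.27 and -0.38. Without the SKNMC DMSO library or the SKNMC library at 200 nM, LOX was at 0.12 and 0.04, and PHLDA1 at -1.27 and -1.17. These fits leave 1 library in a group, so only the size of the change is given.

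**Figure D2:**
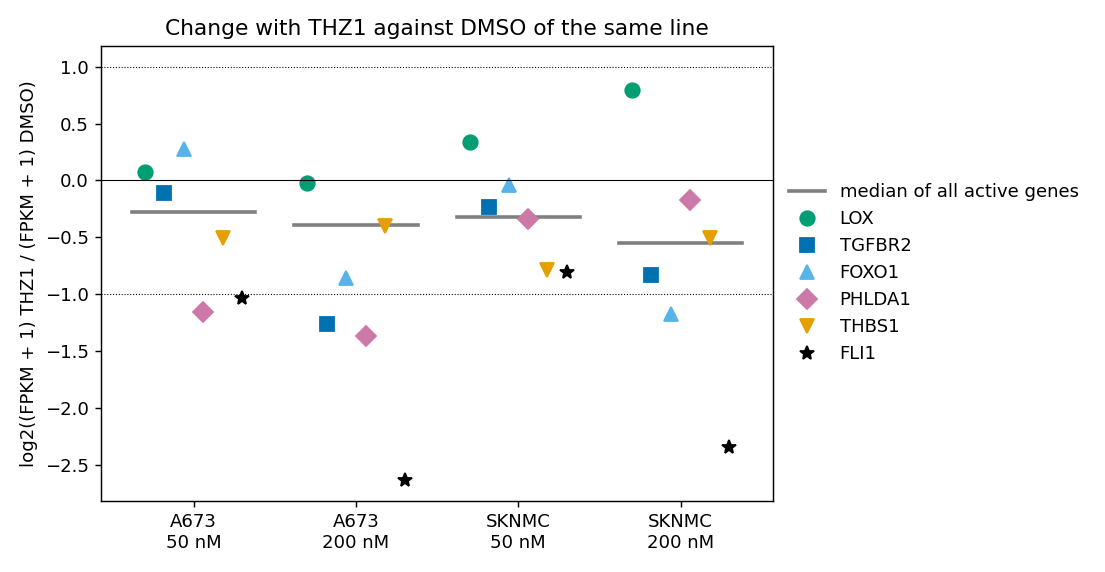
Change with THZ1 (y axis, log2 of the ratio of FPKM + 1 to DMSO of the same line) of the 5 genes and FLI1 in the 4 comparisons (x axis), 1 library against 1, with grey bars at the median of all active genes and dotted lines at 2-fold. LOX in SKNMC at 200 nM, at 0.80, stands highest, FLI1 at 200 nM is lowest, and 16 of the 20 values of the 5 genes are below 0. Most active genes were also below 0 in each comparison.

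Set against FLI1 in the same library, as a ratio of FPKM without the added 1, which no scaling of the library changes, 16 of the 20 values were higher with THZ1 than with DMSO. All 5 genes were higher relative to FLI1 at 200 nM in both lines, by 1.12 to 2.87 on the log2 scale in A673 and 0.69 to 3.40 in SKNMC. At 50 nM, TGFBR2, LOX and FOXO1 were higher in both lines, while PHLDA1 (-0.38 in A673 and -0.61 in SKNMC) and THBS1 (-0.26 and -0.45) had values below 0. With 1 added, as for the other changes, 3 of these 4 were above 0: THBS1 was at 0.52 in A673 and 0.02 in SKNMC and PHLDA1 at 0.47 in SKNMC, so their direction relative to FLI1 at 50 nM depends on the added 1. With 1 added, active genes with a lower change than FLI1 at 200 nM made up 0.894% in A673 and 1.44% in SKNMC. At that dose a higher ratio to FLI1 was thus shared by nearly all genes. At 50 nM they made up 14.9% in A673 and 23.0% in SKNMC, so most active genes were higher relative to FLI1 there too. Of the 5 genes, 3 in each line were so at 50 nM without the added 1, a scale unlike that of these shares. With 1 added, PHLDA1 in A673, at -0.12, was the only value of the 5 genes in either line not higher relative to FLI1 at 50 nM.

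**Figure D3:**
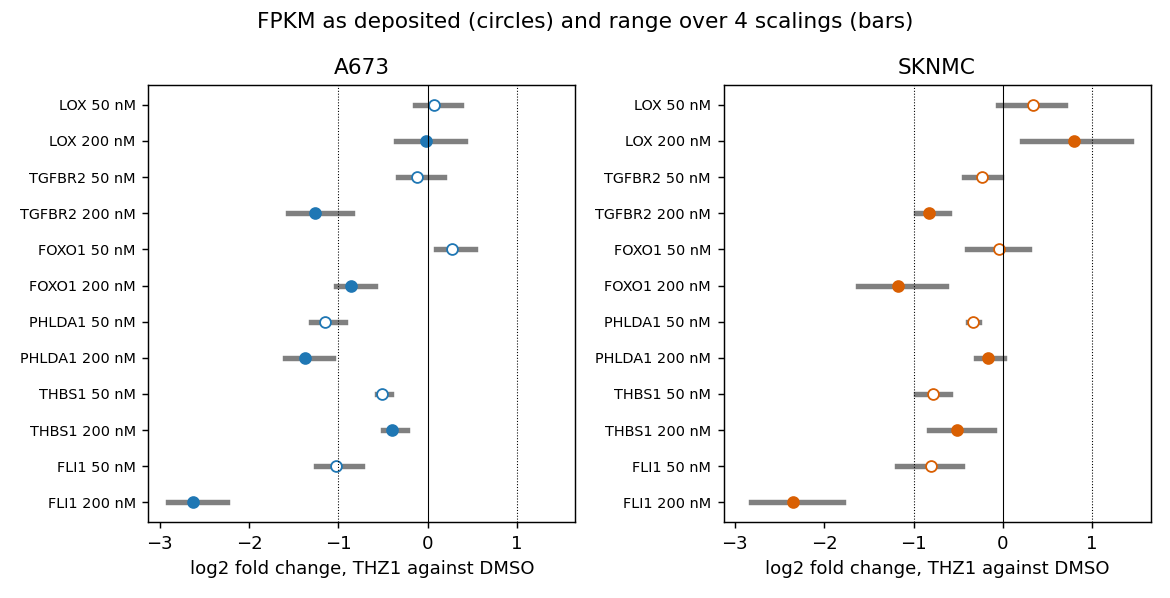
Log2 fold change against DMSO (x axis) of the 5 genes and FLI1 at 50 nM (open circles) and 200 nM (filled circles) in A673 and SKNMC from FPKM as deposited, with grey bars over 4 ways of scaling the libraries and dotted lines at 2-fold. FLI1 is below 0 under all 4, and LOX in SKNMC at 200 nM is above 0 under all 4, from 0.21 to 1.44.

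Other genes that EWS-FLI1 is described to repress were mostly below DMSO, as were most active genes: those above DMSO made up 29.9% and 29.6% in A673 and 27% and 19.2% in SKNMC. Of 9 such genes above 1 FPKM in A673, 0 were above DMSO at either dose, 2 (CTGF and DKK1) fell at least 2-fold at 50 nM and 5 (CTGF, CYR61, DKK1, JAG1 and SPRY1) at 200 nM. Of the 8 above 1 FPKM in SKNMC, 1 (CYR61) was above DMSO at each dose, 1 (DKK1) fell at 50 nM and 5 (CDKN1A, DKK1, IGFBP3, ITGA5 and JAG1) at 200 nM. Of all active genes, 15.9% and 25.3% in A673 and 15.8% and 27.3% in SKNMC were at least 2-fold lower at the 2 doses. The median change was -0.58 and -1.11 in A673 and -0.69 and -1.17 in SKNMC, and stayed below 0 under 4 other scalings. DKK1, a secreted inhibitor of WNT signalling, was at 23.2, 1.95 and 1.66 FPKM in A673 and at 18.2, 3.41 and 1.16 FPKM in SKNMC. CTGF, a YAP and TEAD target, fell in A673 from 241 FPKM to 113 and 43.8 FPKM and was at 7.23, 6.95 and 5.86 FPKM in SKNMC. ZYX (zyxin, of focal adhesions) was at 141, 95.9 and 94.4 FPKM in A673 and 95.2, 51.8 and 48.2 FPKM in SKNMC.

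Genes that EWS-FLI1 is described to activate are given for comparison. Of 15, all above 1 FPKM, A673 had 1 (50 nM) and 4 (200 nM) that fell at least 2-fold, and SKNMC had 4 and 6. The shares of active genes at least 2-fold lower, 15.9%, 25.3%, 15.8% and 27.3%, are the background for these and for the corepressor counts. Their medians were -0.35, -0.49, -0.81 and -0.70. NR0B1, a nuclear receptor and corepressor that takes part in repression of EWS-FLI1 targets, fell in all 4 comparisons, from 58.6 FPKM to 17.6 and 7.97 in A673 and from 25.2 FPKM to 8.20 and 8.10 in SKNMC. NKX2-2, a homeobox repressor, was at 14.8, 9.71 and 3.60 FPKM in A673 and at 37.6, 27.3 and 11.4 FPKM in SKNMC, and fell at 200 nM in both. Genes of NuRD, LSD1, NCOR and PRC2 corepressors were lower by 2-fold in 1 of 13 cases (SUZ12) and 3 of 13 (EED, RCOR1 and SUZ12) in A673, and in 0 of 13 and 2 of 13 (EED and RCOR1) in SKNMC. HDAC1 and HDAC2, the histone deacetylases of NuRD, were at 81.2 and 161 FPKM in A673 with DMSO and at 128 and 161 FPKM at 200 nM.

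**Figure D4:**
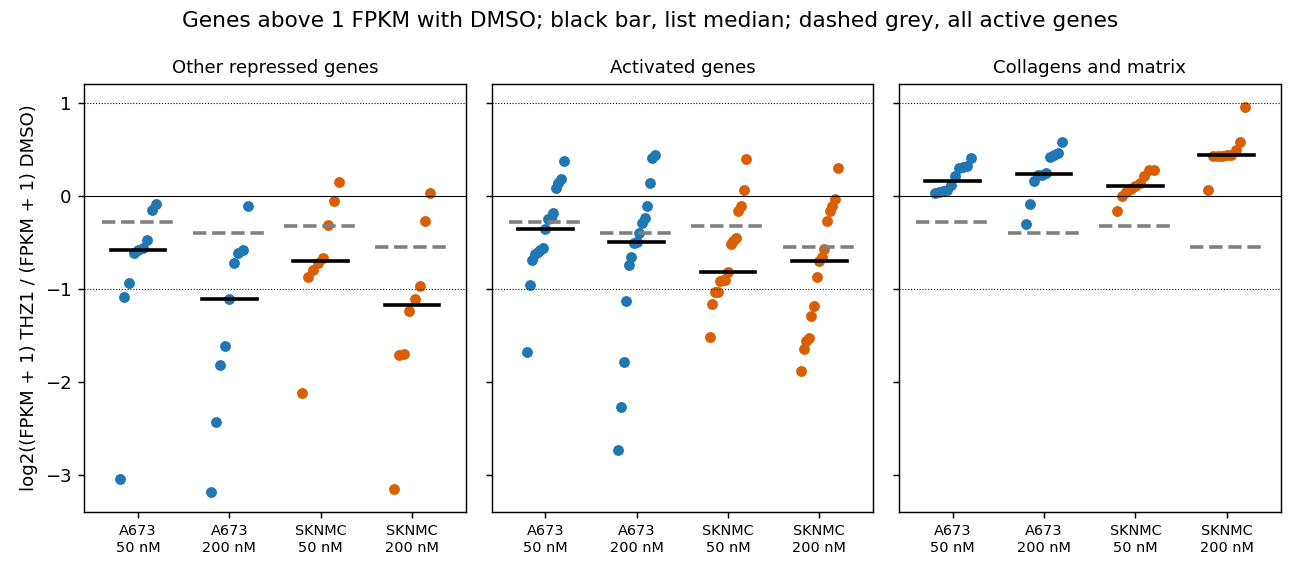
Change with THZ1 (y axis, log2 of the ratio of FPKM + 1 to DMSO) of other genes described as repressed by EWS-FLI1, of genes described as activated by it and of collagen and matrix genes, 1 point per gene above 1 FPKM with DMSO, in A673 (blue) and SKNMC (orange). Black bars are list medians and dashed grey bars the medians of all active genes. The repressed genes lie mostly below 0, with medians of -0.58, -1.11, -0.69 and -1.17, and the matrix genes mostly above, a direction that turns when the libraries are scaled to ribosomal protein genes.

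Around TGFBR2, the TGF-beta pathway list held 15 genes above 1 FPKM in A673 and 16 in SKNMC. In A673, 2 of them were at least 2-fold lower at 50 nM, the inhibitory SMAD6 among them, and 6 at 200 nM. In SKNMC it was 3 and 5, and 1, the inhibitory SMAD7, was at least 2-fold higher at 50 nM, at 24.1 FPKM against 11.3 FPKM. The shares of active genes at least 2-fold lower, 15.9% and 25.3% in A673 and 15.8% and 27.3% in SKNMC, were close to most of these counts. SMAD4, the shared partner of the receptor-activated SMADs, was at 52.5, 38.6 and 12.2 FPKM in A673 and at 47.4, 41.2 and 15.5 FPKM in SKNMC, so it too was lower at 200 nM. The ligand TGFB1 was at 51.5, 56.5 and 55.1 FPKM in A673 and at 108, 94.3 and 77.6 FPKM in SKNMC.

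For FOXO1, the list of FOXO factors and usual targets had 8 genes above 1 FPKM in A673 and 10 in SKNMC. In A673, 0 passed 2-fold at 50 nM and 4 were lower at 200 nM (CDKN1B, GADD45A, IRS2 and KLF6). In SKNMC, FOXO6 was lower and SESN3 higher at 50 nM, and at 200 nM FOXO3, FOXO6, IRS2 and SESN1 were lower and TXNIP higher. Of all active genes, 15.9% and 25.3% in A673 and 15.8% and 27.3% in SKNMC were at least 2-fold lower at the 2 doses. Those at least 2-fold higher in SKNMC made up 0.471% and 0.462%. IRS2, an adaptor of the insulin receptor, was also lowest at 200 nM, at 18.4, 25.4 and 6.48 FPKM in A673 and 48.7, 51.8 and 18.2 FPKM in SKNMC. TXNIP, an inhibitor of thioredoxin, was at 7.49, 14.1 and 24.0 FPKM in SKNMC, and SESN3 at 5.10, 12.3 and 5.73 FPKM.

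PHLDA3, a p53 target related to PHLDA1, fell further than PHLDA1, from 26.0 FPKM to 3.01 and 4.08 in A673 and from 33.2 FPKM to 5.04 and 3.70 in SKNMC. PHLDA2, an imprinted gene, was at 29.6, 38.7 and 34.5 FPKM in A673 and at 4.72, 5.31 and 3.90 FPKM in SKNMC. Of the genes of other thrombospondins and of THBS1 receptors, 4 were above 1 FPKM in A673 and 5 in SKNMC, and 0 passed 2-fold in any comparison. ITGB1, the beta 1 integrin chain, was at 137, 178 and 187 FPKM in A673 and at 59.1, 76.1 and 82.1 FPKM in SKNMC.

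PHLDA1 and THBS1 are both also known as genes that respond early to serum and growth factors, so 13 short-lived or immediate early transcripts were set beside them. In A673, 3 of the 13 were at least 2-fold lower at 50 nM (BTG2, DUSP1 and FOSL1) and 0 higher, and at 200 nM 5 were lower and 4 higher (EGR1, FOS, IER2 and IER3). In SKNMC, 3 were lower and 1 higher at 50 nM, and 3 lower and 4 higher at 200 nM. IER2 was at 65.6, 106 and 134 FPKM in A673 and at 20.5, 56.7 and 91.5 FPKM in SKNMC, while MYC was at 101, 90.9 and 54.5 FPKM and at 198, 167 and 76.8 FPKM. The list thus held genes of both directions. Of all active genes, 15.9% and 25.3% in A673 and 15.8% and 27.3% in SKNMC were at least 2-fold lower at the 2 doses. Those at least 2-fold higher made up 0.343% and 0.126% in A673 and 0.471% and 0.462% in SKNMC. The 4 of 13 that were higher at 200 nM in each line exceeded these shares, in a list chosen with earlier results of these data known.

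Genes with the dose profile most like each of the 5 were sought among 8167 protein-coding genes with a mean above 5 FPKM, by the Euclidean distance over the 6 libraries of log2(FPKM + 1) after subtracting the mean of each line. For TGFBR2 these were MARK3, IKZF2 and TRAM2 (distances of 0.052 to 0.11, against a median of 1.13 over all genes). For LOX they were MRPL30, PABPC1 and CAMK2D, and for FOXO1 LCLAT1, RAP2A and FAM46A. PHLDA1 was nearest to IKBKB, TOP2A and MLLT10, and THBS1 to RNFT1, AKAP11 and CAAP1. The added 1 flattens profiles at low levels, as for TGFBR2 and PHLDA1 in SKNMC, FOXO1 in A673 and THBS1 in both lines. There the nearest genes share the shape on this scale and not the ratio of FPKM. In SKNMC, TGFBR2 went from 1.49 FPKM with DMSO to 0.402 FPKM at 200 nM, and MARK3 from 39.4 to 21.0 FPKM.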

How the data were processed

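RNA-seq of A673 and SKNMC cells was analysed, with 1 library for each of 6 conditions named in the labels. The authors deposited FPKM per gene (20311 protein-coding, 7109 lincRNA); their methods name TruSeq libraries, 100-bp reads, STAR on hg19 and StringTie with Ensembl 75, and the submitters' processing notes name STAR and Cufflinks. Its heading speaks of averages; over what is not given in the sources used here. The authors' 4 columns of log2 fold changes were not used. Depth is unknown, so no counting interval can be given.

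Log2 fold changes used a pseudocount of 1, active genes had over 1 FPKM with DMSO, and calls needed 2-fold. Members and lists were chosen with earlier results of these data known. Named genes were the members, FLI1, EWSR1, the 4 of each list with the highest mean FPKM, those at least 2-fold higher, and the 3 most like each member; others were named after their values were seen. A limma 3.58.1 fit (R 4.3.3, eBayes with trend, Benjamini-Hochberg adjustment over all genes tested) with line and dose as terms was added after the values were seen; no test had been planned. Alternatives were other pseudocounts, 4 scalings, other filters and 1.5-fold. Python 3.11.15, numpy 2.4.6 and pandas 2.3.3 were used, and the code was tested on simulated data. The values of 1 gene of the TGF-beta list are not reported here.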

Additional observations from a re-analysis of the deposited data

Results flagged for a closer look

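LOX, FOXO1 and EWSR1 moved in opposite directions in the 2 lines at 1 dose. These differences were not tested: with 1 library per line and dose, a term for the difference leaves no residual degrees of freedom. At 200 nM the log2 fold change of LOX was -0.02 in A673 and 0.80 in SKNMC, a difference (A673 minus SKNMC) of -0.82. At 50 nM it was 0.28 for FOXO1 in A673 and -0.04 in SKNMC, a difference of 0.32, and for EWSR1 -0.02 and 0.08, a difference of -0.10. The opposite directions of LOX and FOXO1 ended when the libraries were scaled to the 75th percentile or to the median ratio of active genes, with LOX at 0.34 and 0.42 in A673 (1.36 and 1.44 in SKNMC) and FOXO1 at 0.22 and 0.30 in SKNMC (0.48 and 0.53 in A673). Of 10574 genes over 1 FPKM with DMSO in A673 and in SKNMC, 15.2% had opposite directions at 50 nM and 18.7% at 200 nM.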

How the results depend on the processing

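The scaling of the libraries decided most of the small changes, since scaling to the 75th percentile, to the median ratio to DMSO or to the ribosomal protein median shifted the median change by 0.22, 0.27 and -0.19 in A673 at 50 nM, and by 0.48, 0.55 and -0.47 in SKNMC at 200 nM. FLI1 kept its direction under all 6 alternatives (4 scalings and 2 pseudocount settings). At 50 nM its change in A673 was -0.79 and -0.73 under the first 2 scalings, short of 2-fold, and in SKNMC -1.18 under the ribosomal one. Of the 20 changes of the 5 genes, 4 were above 0 as deposited, 7 with the 75th percentile, 8 with the median ratio and 2 with the ribosomal median. Under the first 2, the genes above 0 numbered 1 in A673 at 200 nM and 2 in SKNMC at 50 nM, and the median ratio gave 2 in SKNMC at 200 nM; the ribosomal median gave 1 in A673 and 0 in SKNMC at 50 nM. Genes at least 2-fold lower under both were 0 in A673 at 50 nM, 1 in A673 at 200 nM and 0 in SKNMC at 200 nM, and 1 gene, LOX in SKNMC at 200 nM, was then at least 2-fold higher (1.36 and 1.44). Division by the median ratio brought the median change of active genes to about 0. About as many of them then lay above 0 as below it. The shares of all genes above 0 or past 2-fold under these scalings are not given here. A pseudocount of 0.1, or none, gave 2 genes at least 2-fold lower in A673 at 50 nM, 2 in SKNMC at 50 nM and 2 in SKNMC at 200 nM. The share of all genes at these pseudocounts is not given here. A threshold of 1.5-fold gave 1 lower gene in SKNMC at 50 nM, and 2 lower and 1 higher in SKNMC at 200 nM. Between the untreated lines, alternatives added after seeing the data left TGFBR2, PHLDA1 and FOXO1 at least 2-fold apart, and THBS1 reached -1.24 with a pseudocount of 0.1. The share of genes at least 2-fold lower was 6.41% to 11.8% with no filter on low values. No paired analysis was possible because the labels give no shared replicate numbers; the fit with the line as a block, added after seeing the data, pairs the libraries by line. It called 1 of 5 genes at 50 nM, 2 with a pseudocount of 0.1 and 0 with the median ratio. At 200 nM it called 3 in each of these cases, but not always the same 3, and FLI1 passed in each. With 1 added, 38.3% of all genes passed at 50 nM and 53.5% at 200 nM. With a pseudocount of 0.1, 566 of 11503 genes passed as higher and 3901 as lower at 50 nM. At 200 nM these were 708 and 5540. With the median ratio they were 2316 and 2299 of 11824 genes at 50 nM, and 3184 and 2985 at 200 nM. With 1 library left out, FLI1 stayed between -0.79 and -1.04 at 50 nM and between -2.36 and -2.61 at 200 nM. The cause was not tested.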
